A study of Homo sapiens with 2 samples.

Results

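ENCC 4′ was the smallest of the 4 numbered subclusters of enteric neural crest cells (ENCCs) that the authors annotated in free-floating enteric crestospheres at day 15. It held 138 of 4907 numbered ENCCs, in a library of 6320 cells and a series of 15947 cells. Its members were the cells whose deposited cell type was enteric neural crest and whose deposited subtype was the fourth subcluster, and they were compared with the 1665 cells of ENCC 1′, 2377 of ENCC 2′ and 727 of ENCC 3′ in the same library.

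The cells were differentiated from the human embryonic stem cell line H9, and no treatment was added at either stage. A monolayer was induced to enteric neural crest, detached on day 12 and cultured in suspension until day 15 in neurobasal medium with FGF2 and an inhibitor of GSK3. The earlier stage was 1 library of adherent cells at day 10. Each library pooled 2 biological repeats whose cells could not be told apart, so a subcluster had no replicate, and levels are given as a description without a test.

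The neural crest is a migratory population that leaves the dorsal neural tube and gives rise to the neurons and glia of the gut, to Schwann cells and to melanocytes. SOX10 and FOXD3 are transcription factors that mark it before its cells take on a fate. PDGFRB is a receptor tyrosine kinase for platelet-derived growth factors that is best known from pericytes and mesenchyme.

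Levels are sums of unique molecular identifiers (UMIs) in a class of cells, scaled to 1000000 UMIs of that class (CPM), mostly with the 95% exact Poisson interval in parentheses at first mention. No p-value was computed. ENCC 4′ held 1516022 UMIs, so that 1 UMI was worth 0.660 CPM, and the pooled ENCC 1′ to 3′ held 54022809. A log2 ratio compares ENCC 4′ with the pooled cells of ENCC 1′ to 3′ on CPM + 1, which understates differences of low genes. Intervals cover counting error only.

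Summed over the 138 cells, neural crest markers were present, with SOX10 below the other subclusters. SOX10 stood at 52.8 CPM (41.8 to 65.7) in ENCC 4′, 94.5 in ENCC 1′, 116 in ENCC 2′ and 90.8 in ENCC 3′. Its CPM was 0.504 times that of the pooled other ENCCs (0.399 to 0.628, exact conditional binomial interval). The level was still above the 5.35 CPM of mesenchymal cells (Mes) and the 4.36 CPM of neuro-epithelial progenitors (NEP) of the same library. With each cell thinned to 3000 UMIs, 9.42% of ENCC 4′ cells had a SOX10 UMI (Clopper-Pearson interval 5.11 to 15.6). The shares in ENCC 1′ to 3′ were 23.9%, 28.3% and 23.1%. For FOXD3 the share was 6.52% against 8.35%, 6.39% and 3.99%. FOXD3 did not share the lower level, with 23.1 CPM in ENCC 4′ (16.1 to 32.1) against 25.5, 23.5 and 16.4 in ENCC 1′ to 3′. ERBB3, the neuregulin receptor of crest and glial precursors, was at 72.6 CPM (59.6 to 87.4) against 104, 116 and 89.6.

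PDGFRB was rare in ENCC 4′ but above the other subclusters. It had 13 UMIs in ENCC 4′, or 8.58 CPM (4.57 to 14.7), against 1.84, 0.71 and 0.98 CPM in ENCC 1′ to 3′, a ratio of 7.47 (3.77 to 13.7). The mesenchymal cells were higher, with 32.1 CPM. The 13 UMIs lay in 10 of the 138 cells, and 6 of these 10 also held a SOX10 UMI, which 52 of all 138 did. After each cell was thinned to 3000 UMIs, 3.62% of ENCC 4′ cells had a PDGFRB UMI (Clopper-Pearson interval 1.19 to 8.25) against 0.360%, 0.210% and 0.550% in ENCC 1′ to 3′. The share in NEP cells, which held no PDGFRB UMI, was 0 of 104, which leaves room for 2.88%. Without thinning the share in ENCC 4′ was 7.25%. Median depth was 10290 UMIs in ENCC 4′ and 10953.5 in NEP cells.

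PDGFRA, the partner receptor, had no UMI in ENCC 4′. A count of 0 at this depth leaves room for 1.98 CPM, and the other subclusters stood at 0.79, 1.08 and 0.98, so a difference was not detectable. Of the ligands, PDGFC was at 9.23 CPM against 19.9, 23.6 and 15.9, and PDGFA had 3 UMIs. None of the 8 PDGF ligands and receptors reached the level required for the comparison across genes. BNC2, a zinc finger protein, was at 6.60 CPM in ENCC 4′ (3.16 to 12.1) against 3.21, 2.24 and 7.69, within the range of the other subclusters. ETV1, an ETS factor, had 2 UMIs, or 1.32 CPM, against 11.6, 11.4 and 5.86.

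Defining markers of other cell types were at or near 0. TWIST1 had 1 UMI, and MSX1, PAX6 and SOX1 had 0. The mesenchymal list summed to 210 CPM in ENCC 4′ against 258, 197 and 265 in ENCC 1′ to 3′, with 0 of its 2 compared members past a log2 ratio of 1 in either direction and 4 of its 13 members at 0 UMIs. The neuro-epithelial list summed to 3.96 CPM (4.05, 4.66 and 4.88 in the others), the placode and sensory neuroblast list to 54.7 CPM (72.0, 58.9 and 57.4), the epithelial list to 17.2 CPM (13.6, 12.0 and 13.7) and the endothelial and blood list to 0.66 CPM (0.95, 1.60 and 5.98). The neuronal commitment list stood at 93 CPM against 134, 108 and 102.

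Of 10 enteric progenitor genes, 3 had no UMI in ENCC 4′. Among them, HAND2, a factor of enteric neuron precursors, had 0 UMIs in all 4 subclusters. RET, the GDNF receptor, had 0 in ENCC 4′ against 0.11, 0.037 and 0 CPM in the others, so a difference was not detectable. The 12 HOX genes of the list, which give crest cells their axial position, summed to 3 UMIs in ENCC 4′.

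ENCC 4′ cells were mostly assigned to G1. Of the 138 cells, 119 were in G1 (86.2%, Clopper-Pearson interval 79.3 to 91.5), 5 in S (3.62%, 1.19 to 8.25) and 14 in G2/M (10.1%, 5.66 to 16.4). The G1 share was 32.8% in ENCC 1′, 28.6% in ENCC 2′ and 48.7% in ENCC 3′. The S share was 45.1%, 45.3% and 34.9% in the same order, so ENCC 4′ lay outside the range of the others for both phases. Phases were scored by the authors from the expression of Seurat's S and G2/M gene sets, and their scores were regressed out before clustering. The phase shares and the levels of DNA replication and mitosis genes given below are therefore not independent results.

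The cells also held fewer UMIs and genes. The median ENCC 4′ cell had 10290 UMIs and 2113.5 detected genes, against 10953 to 11193 UMIs and 2423 to 2556 genes in the others. Fewer than 1700 genes were detected in 18 of the 138 cells (13%), against 1.56%, 2.99% and 4.68% of ENCC 1′ to 3′ cells. The median mitochondrial share was 1.93% of UMIs against 2.57%, 2.86% and 2.64%, and the median ribosomal share was 48.0% against 44.9%, 44.1% and 45.1%. The part of mitochondrial and ribosomal content in the results was not tested. Of the 102 cell barcodes shared between the libraries, 3 were in ENCC 4′. No doublet caller was applied here, beyond the authors' upper limits on genes and UMIs.

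**Figure D1:**
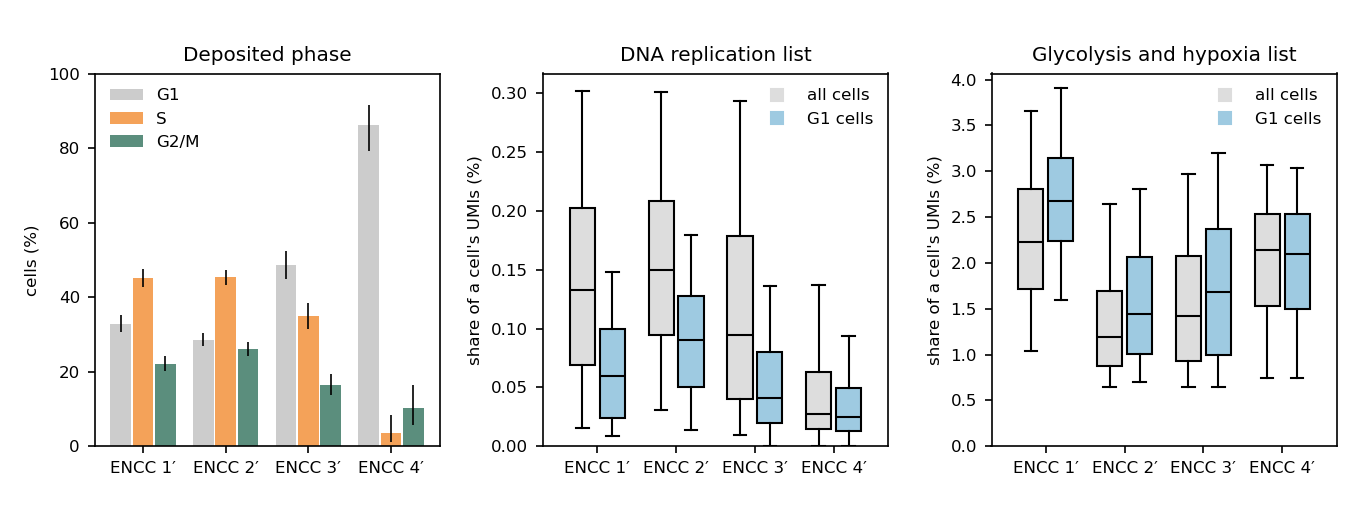
Left, percent of cells in each deposited phase by subcluster, with Clopper-Pearson intervals. Middle and right, percent of a cell's UMIs in the DNA replication list and in the glycolysis and hypoxia list (boxes are quartiles with the median, whiskers the 5th and 95th percentiles; grey, all cells; blue, G1 cells). ENCC 4′ has 86.2% of its cells in G1 and the lowest median for DNA replication, 0.028%, while its glycolysis and hypoxia median of 2.14% lies just under the 2.23% of ENCC 1′.

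Across the transcriptome, more genes were lower in ENCC 4′ than higher. Of 33694 genes, 3948 had a mean of at least 20 CPM between ENCC 4′ and the pooled others and were compared. A log2 ratio over 1 was found for 158 genes, which is 4% of those compared, and a ratio under -1 for 340, which is 8.61%. Of these, 156 lay above and 339 below each of the other 3 subclusters. The median log2 ratio of all compared genes was -0.17. Among G1 cells 106 genes were over 1 and 177 under -1, of which 99 and 155 were among those above. Scaling by edgeR TMM factors, which shifted every ratio by 0.19, gave 232 higher and 197 lower genes, and DESeq2 size factors, with a shift of 0.20, gave 236 and 187. The higher genes thus made up 31.7% of the calls with scaling by total UMIs, 54.1% with TMM and 55.8% with DESeq2.

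By rank correlation over the 3948 genes, ENCC 4′ was nearest to ENCC 1′ (Spearman's rho 0.847) and ENCC 3′ (0.813). The 27 ENCCs without a number followed at 0.804, then NEP (0.768), ENCC 2′ (0.759), CP1 (0.743), Mes (0.734) and CP2 (0.660), where CP1 and CP2 are the cranial placode clusters of the library. All classes share 1 library, their depths differ, and genes are not independent, so the order is a description.

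**Figure D2:**
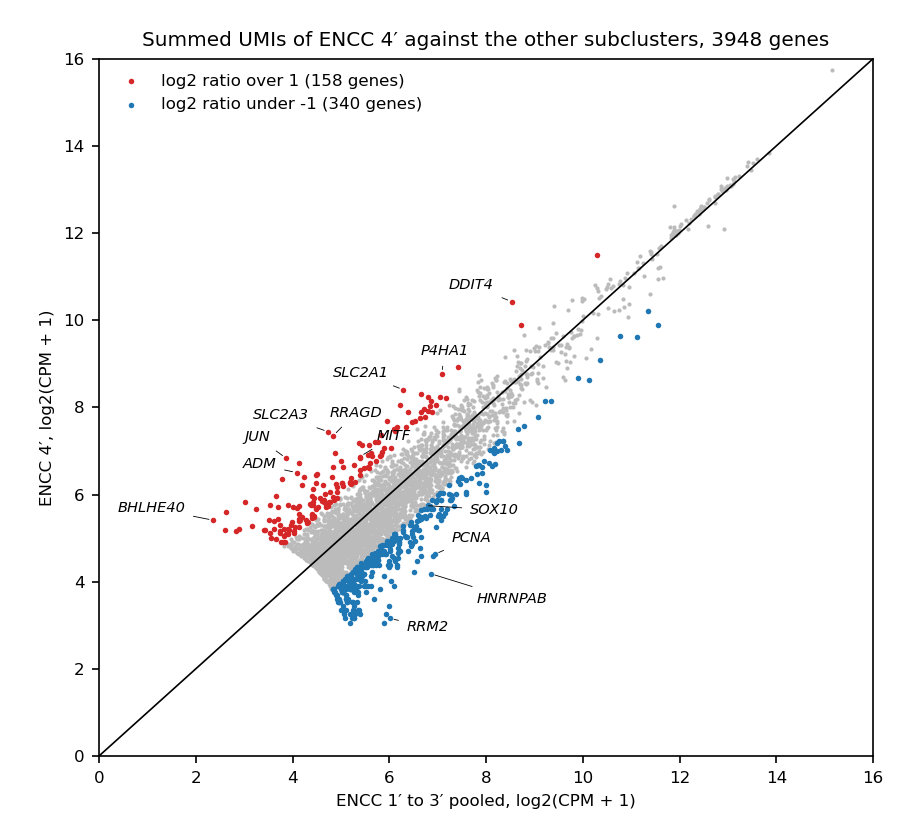
Log2(CPM + 1) of ENCC 4′ against the pooled ENCC 1′ to 3′ for 3948 genes, with 158 genes over a log2 ratio of 1 in red and 340 under -1 in blue, and the line of equality in black. SLC2A1, P4HA1 and DDIT4 lie above the line, while PCNA, HNRNPAB and RRM2 lie below it.

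The 15 genes with the largest ratios were drawn from genes above all 3 other subclusters, so that order was fixed by the choice. They included 5 transcription factors, a glucose transporter and genes induced by stress or low oxygen. BHLHE40, a repressor of the basic helix-loop-helix family that responds to low oxygen, was at 41.6 CPM in ENCC 4′ (31.9 to 53.2) against 7.58, 1.38 and 5.13 in ENCC 1′ to 3′, a log2 ratio of 3.05. JUN and FOS, subunits of the AP-1 factor of immediate early transcription, followed the same order. JUN was at 113 CPM (97.1 to 132) against 20.2, 9.54 and 11.5, and FOS at 49.5 CPM (38.9 to 62.0) against 16.9, 3.17 and 6.59. HES7, an oscillating repressor of the Notch pathway, was at 56.1 CPM (44.8 to 69.3) against 13.2, 3.20 and 5.74. MAF, a leucine zipper factor, was at 36.3 CPM against 7.21, 3.76 and 13.7. In each of these 5 genes the interval of ENCC 4′ lay above those of all 3 other subclusters.

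The neuronal-type glucose transporter SLC2A3 was at 173 CPM (153 to 195) in ENCC 4′ against 44.0, 12.7 and 25.6. RRAGD, a Rag GTPase that signals amino acid supply to mTORC1, was at 162 CPM (143 to 184) against 42.7, 15.6 and 32.7. ADM, the secreted peptide adrenomedullin, was at 89.7 CPM (75.3 to 106) against 32.3, 5.63 and 12.0. EGLN3, a prolyl hydroxylase that marks HIF for degradation and is itself a HIF target, was at 52.8 CPM against 21.0, 3.5 and 9.27. All of these were second highest in ENCC 1′ and lowest in ENCC 2′.

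Secreted and surface proteins made up part of the remainder. NOG, the BMP antagonist noggin, was at 35.6 CPM (26.8 to 46.5) against 10.6, 1.83 and 2.93. GDF15, a stress-induced cytokine, was at 35.0 CPM against 9.53, 2.79 and 8.79. EFNA3, an ephrin, was at 81.1 CPM against 20.6, 7.15 and 12.9, and ADGRG1, an adhesion receptor, at 47.5 CPM against 9.11, 1.68 and 7.69. RAB3A, a GTPase of vesicle release, and CLK1, a kinase of splicing factors, had log2 ratios of 2.59 and 2.33. All 15 intervals of ENCC 4′ lay above those of the other 3 subclusters, and within G1 cells all 15 log2 ratios stayed over 1, between 1.5 for EGLN3 and 2.44 for BHLHE40.

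ENCC 1′ was the highest of the other 3 subclusters for 14 of the 15 genes and ENCC 2′ the lowest for all 15. Over the 158 genes with a ratio above 1, ENCC 1′ was highest for 132 and ENCC 2′ lowest for 123. ENCC 4′ also exceeded the 4 non-crest classes of day 15 for 9 of the 15 genes. The exceptions were JUN, SLC2A3, RAB3A, EFNA3 and CLK1, highest in CP2, and EGLN3, highest in NEP.

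**Figure D3:**
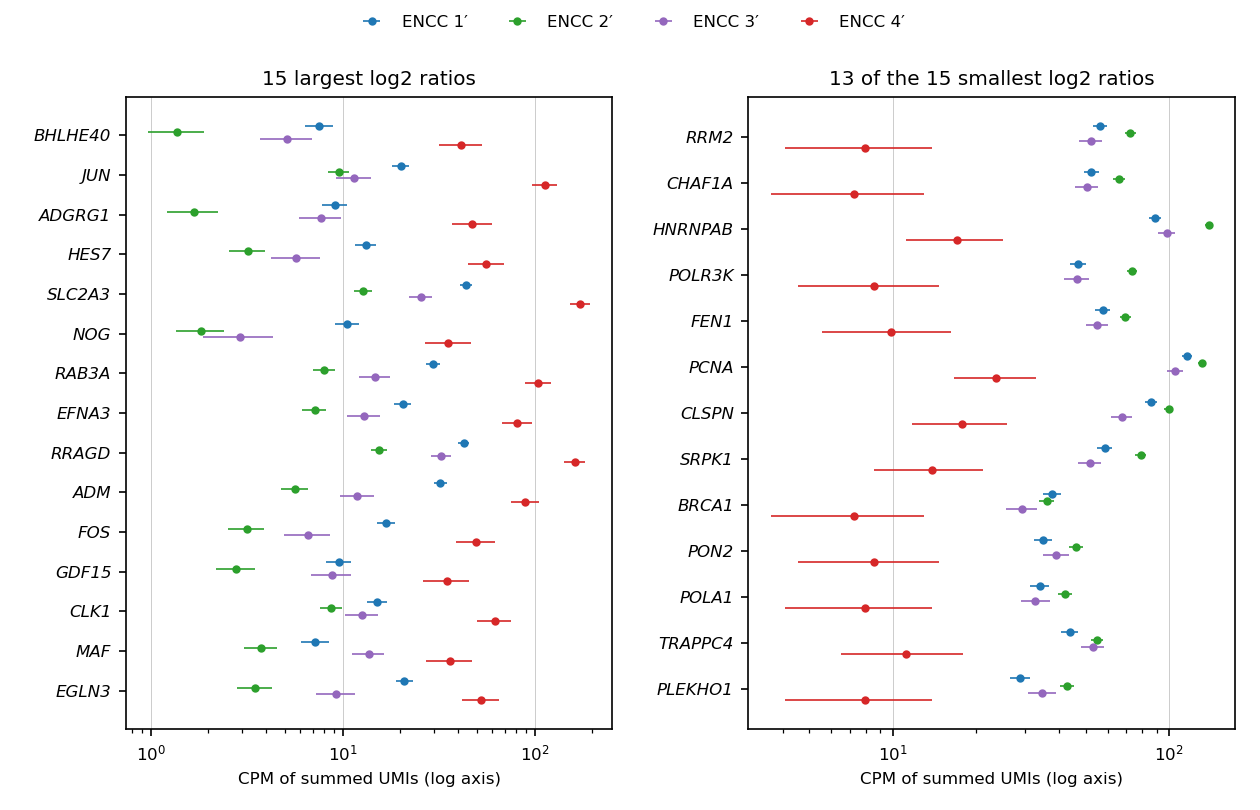
CPM on a log axis of the 15 genes with the largest (left) and 13 of the 15 with the smallest (right) log2 ratios in each subcluster, with exact Poisson intervals. The genes were chosen from those above (left) or below (right) all 3 other subclusters, so every point of ENCC 4′ (red) lies beyond theirs. Examples are 41.6 CPM of BHLHE40 against at most 7.58 and 7.92 CPM of RRM2 against at least 52.0.

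These genes were spread over the cells rather than held by a few. SLC2A3 was seen in 112 of 138 cells and RRAGD in 108, and the 5 cells with the most UMIs held 11.1% and 11.8% of them. GDF15 was the most uneven, with a UMI in 30 cells and 34% of its UMIs in 5. The median ENCC 4′ cell held a UMI of 7 of the 15 genes, against 2, 0 and 1 in ENCC 1′ to 3′. At least 8 of the 15 were seen in 57 ENCC 4′ cells (41.3%), but also in 63 cells of the larger ENCC 1′ (3.78%), in 10 of ENCC 2′ and in 13 of ENCC 3′. The genes were chosen on these same cells, so these counts describe the spread and are no evidence for the boundary.

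The glycolysis and hypoxia list, 17 genes of sugar breakdown and of the response to low oxygen, was mostly higher in ENCC 4′ than in the pooled others. Of its 15 compared members, 5 had a log2 ratio over 1 and 0 were under -1, with a median of 0.54. In all 13 were above 0, and 9 were highest in ENCC 4′ among the 4 subclusters. The background for this and the other lists is all 3948 compared genes. Of these, 4% were over 1 and 8.61% under -1, with a median of -0.17, while 1520 were above 0 and 1182 highest in ENCC 4′. SLC2A1, the GLUT1 transporter, was at 338 CPM in ENCC 4′ (310 to 369) against 136, 36.7 and 73.2 in ENCC 1′ to 3′. P4HA1, which hydroxylates proline in collagen, was at 437 CPM (404 to 471) against 216, 81.1 and 121. VEGFA, the vascular growth factor, was at 50.8 CPM against 26.7, 9.80 and 11.2, and HK2, the first enzyme of glycolysis, at 83.8 CPM against 43.4, 17.0 and 21.6. ADM was the fifth.

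Other glycolytic enzymes had smaller ratios, some below ENCC 1′ and some above it. ALDOA was at 1400 CPM in ENCC 4′ (1341 to 1461) against 1326, 783 and 1026, and PGK1 at 1208 (1153 to 1264) against 1167, 610 and 785. GAPDH was at 9909 CPM in ENCC 4′ against 10846, 6316 and 7264, and ENO1 at 2343 against 3010, 1774 and 2082. The log2 ratios of GAPDH and ENO1 were 0.30 and 0.06, the former changing to -0.12 among cells with fewer than 2200 genes, and those of TPI1 and PKM were -0.17 and -0.09. The whole list summed to 21115 CPM in ENCC 4′, below the 22690 of ENCC 1′ and above 13450 and 15451 in ENCC 2′ and 3′. Per cell the list took a median of 2.14% of UMIs in ENCC 4′, with a range of 0.478% to 4.10%, against 2.23%, 1.19% and 1.43%. Among G1 cells alone, the median was 2.10% in ENCC 4′ and 2.67% in ENCC 1′, and the median log2 ratio of the list members was 0.20, still with 5 over 1. Among cells with fewer than 2200 genes it was 0.18. HIF1A, which encodes the oxygen-regulated subunit of the factor itself, was at 27 CPM against 21.9, 24.1 and 22.1.

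Promoters are shown for genes at both ends of the comparison, because the core of the hypoxia response element (ACGTG) and the sites of E2F factors that drive replication genes are short motifs whose presence can be counted. The 300 bases run from 250 before to 50 after the RefSeq start of the gene on GRCh38.p14, written 5′ to 3′ on the strand of the gene. Capitals mark ACGTG on either strand in the first 3, genes higher in ENCC 4′, and TTTNNCGC on either strand, a looser form of the E2F site, in the last 3, which were lower. ACGTG is left unmarked in the last 3, although the promoter of MCM7 also holds it.
BHLHE40, chr3:4979187-4979486, plus strand: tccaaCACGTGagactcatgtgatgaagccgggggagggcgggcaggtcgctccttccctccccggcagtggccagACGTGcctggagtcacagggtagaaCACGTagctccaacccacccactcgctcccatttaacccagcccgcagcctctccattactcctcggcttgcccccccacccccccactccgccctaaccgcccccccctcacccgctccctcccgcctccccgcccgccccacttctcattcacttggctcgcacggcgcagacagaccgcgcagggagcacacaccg
P4HA1, chr10:73096817-73097116, minus strand: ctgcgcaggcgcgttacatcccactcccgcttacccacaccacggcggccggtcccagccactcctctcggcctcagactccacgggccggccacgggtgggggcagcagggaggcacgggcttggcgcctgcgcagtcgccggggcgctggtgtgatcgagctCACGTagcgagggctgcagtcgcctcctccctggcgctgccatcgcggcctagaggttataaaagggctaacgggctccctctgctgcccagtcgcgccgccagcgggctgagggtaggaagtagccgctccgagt
HK2, chr2:74833877-74834176, plus strand: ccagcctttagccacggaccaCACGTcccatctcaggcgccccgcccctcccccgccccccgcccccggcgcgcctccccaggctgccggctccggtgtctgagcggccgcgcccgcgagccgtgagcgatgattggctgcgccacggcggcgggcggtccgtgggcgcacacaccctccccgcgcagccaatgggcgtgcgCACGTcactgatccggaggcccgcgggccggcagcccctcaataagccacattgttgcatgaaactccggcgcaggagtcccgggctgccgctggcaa
PCNA, chr20:5126573-5126872, minus strand: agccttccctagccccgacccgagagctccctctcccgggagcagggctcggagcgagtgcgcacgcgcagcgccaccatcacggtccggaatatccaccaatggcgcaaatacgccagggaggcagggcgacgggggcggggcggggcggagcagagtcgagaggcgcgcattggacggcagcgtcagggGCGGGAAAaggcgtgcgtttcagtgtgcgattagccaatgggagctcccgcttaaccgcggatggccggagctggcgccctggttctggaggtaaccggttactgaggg
CLSPN, chr1:35769929-35770228, minus strand: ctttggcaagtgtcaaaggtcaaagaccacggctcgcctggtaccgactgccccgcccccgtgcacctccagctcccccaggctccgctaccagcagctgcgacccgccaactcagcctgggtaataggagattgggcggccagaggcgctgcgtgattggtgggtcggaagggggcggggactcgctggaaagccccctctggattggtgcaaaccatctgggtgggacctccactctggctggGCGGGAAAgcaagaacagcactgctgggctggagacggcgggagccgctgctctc
MCM7, chr7:100101348-100101647, minus strand: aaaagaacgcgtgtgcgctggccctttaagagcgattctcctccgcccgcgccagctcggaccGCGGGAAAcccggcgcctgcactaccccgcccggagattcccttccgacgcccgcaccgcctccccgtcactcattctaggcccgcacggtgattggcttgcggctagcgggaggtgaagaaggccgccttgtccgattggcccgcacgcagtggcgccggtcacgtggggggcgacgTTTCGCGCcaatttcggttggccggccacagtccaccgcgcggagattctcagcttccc

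ACGTG was about as common among the higher genes as among the lower genes and all genes compared. It was present in 41 of 125 promoters of genes with a log2 ratio over 1 (32.8%), in 30.8% of the 3130 compared genes with a promoter in the table, and in 21.6% of all 27305 promoters. Among genes with a ratio under -1 it was in 74 of 262 promoters (28.2%). Of the 12 promoters found for the 15 leading genes, 2 held it, those of BHLHE40 and RAB3A. Of the 13 found for the 15 genes with the smallest ratios, 4 held it. The glycolysis and hypoxia list had it in 7 of 15. CACGTG, which contains ACGTG and is the motif bound by BHLHE40 itself and by MITF, was in 16 of the 125 (12.8%) against 11.6% of compared genes.

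TTTNNCGC was in 12 of 17 promoters of the DNA replication list (70.6%), against 12.1% of compared genes and 6.90% of all promoters. It was in 43 of 262 promoters of genes with a ratio under -1 (16.4%) and in 10 of 125 with a ratio over 1 (8%). These are counts of letters in 1 window per gene, and binding was not measured.

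The 15 genes with the smallest ratios were drawn from genes below all 3 other subclusters. Of these 15, 13 are described here, and 7 of the 13 act in DNA synthesis or repair. RRM2, a subunit of ribonucleotide reductase, was at 7.92 CPM in ENCC 4′ (4.09 to 13.8) against 56.4, 72.4 and 52.0 in ENCC 1′ to 3′, a log2 ratio of -2.86. PCNA, the sliding clamp of DNA polymerases, was at 23.7 CPM (16.6 to 32.9) against 116, 132 and 105. CHAF1A of the chromatin assembly factor, FEN1, the flap endonuclease, CLSPN, a checkpoint adaptor, BRCA1, a repair factor, and POLA1, the catalytic subunit of the priming polymerase, had log2 ratios of -2.86, -2.55, -2.27, -2.15 and -2.12. Between 11 and 36 UMIs stood behind each of these 7 genes in ENCC 4′.

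The other 6 have no single theme. HNRNPAB, an RNA-binding protein, was at 17.2 CPM (11.2 to 25.1) against 89.0, 139 and 98.1. POLR3K, a subunit of RNA polymerase III, was at 8.58 CPM (4.57 to 14.7) against 46.9, 73.4 and 46.4. SRPK1, a kinase of splicing factors, PON2, a lactonase, TRAPPC4, of vesicle tethering, and PLEKHO1 had log2 ratios from -2.21 to -2.08. ENCC 2′ was the highest of the other subclusters for 14 of the 15 genes. All 15 intervals of ENCC 4′ lay below those of the other 3. Within G1 cells, 14 of the 15 stayed under -1, and POLA1 was at -0.92.

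All 15 compared members of the DNA replication list were lowest in ENCC 4′, and 13 had a log2 ratio under -1, with a median of -1.42. Among all 3948 compared genes, 2013 were lowest in ENCC 4′ and 8.61% were under -1. The list took 488 CPM in ENCC 4′ (454 to 525) against 1410, 1577 and 1218 in ENCC 1′ to 3′. MCM7, of the replicative helicase, was at 46.2 CPM (36.0 to 58.3) against 119, 144 and 103. TYMS, which makes thymidylate, was at 88.4 CPM (74.1 to 105) against 221, 235 and 186, and GINS2 at 41.6 CPM against 128, 145 and 113. CCNE2, a cyclin of S phase entry, had 0 UMIs against 9.95, 10.2 and 8.42 CPM.

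The lower replication level was smaller but present among G1 cells, which were themselves assigned by scores of S and G2/M genes. There, 7 of the 15 members were under -1, the median was -0.98 and the list took 374 CPM in ENCC 4′ (341 to 409) against 689, 935 and 535. The median G1 cell of ENCC 4′ had 0.025% of its UMIs in the list, against 0.060%, 0.090% and 0.041%. The median over all ENCC 4′ cells was reached by 44.5% of G1 cells of ENCC 4′, and by 70.7%, 87.6% and 66.1% of those of ENCC 1′ to 3′, so single cells overlapped. Among cells with fewer than 2200 detected genes (77 in ENCC 4′), a restriction chosen after seeing the data, the median log2 ratio was -2.22.

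Genes of mitosis did not follow to the same extent. Of 18 compared members, 4 had a ratio under -1, 0 were over 1 and the median was -0.84, although 15 were lowest in ENCC 4′. The share under -1 over all compared genes was 8.61%, and their median was -0.17. MKI67, the proliferation antigen, was at 26.4 CPM (18.9 to 35.9) against 100, 104 and 78.5, and CCNB1, TPX2 and PLK1 had ratios of -1.22, -1.09 and -1.02. CCNB2 and CDC20 were at 0.00 and 0.02, and HMGB2, a chromatin protein, was the highest of the 4 subclusters at 909 CPM (862 to 958) against 656, 518 and 402. TOP2A, a topoisomerase, was at 186 CPM against 327, 302 and 236. Over all phases the list summed to 1991 CPM in ENCC 4′ against 2576, 2521 and 2019, and HMGB2 alone made up 909 of the 1991. Among G1 cells the median moved to -0.28, still negative. The list sum was higher in ENCC 4′ among these cells, at 1232 CPM (1172 to 1295), than in the pooled others, at 959. PLK1 changed sign there, to 0.66. Among cells with fewer than 2200 genes the median was -1.52.

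**Figure D4:**
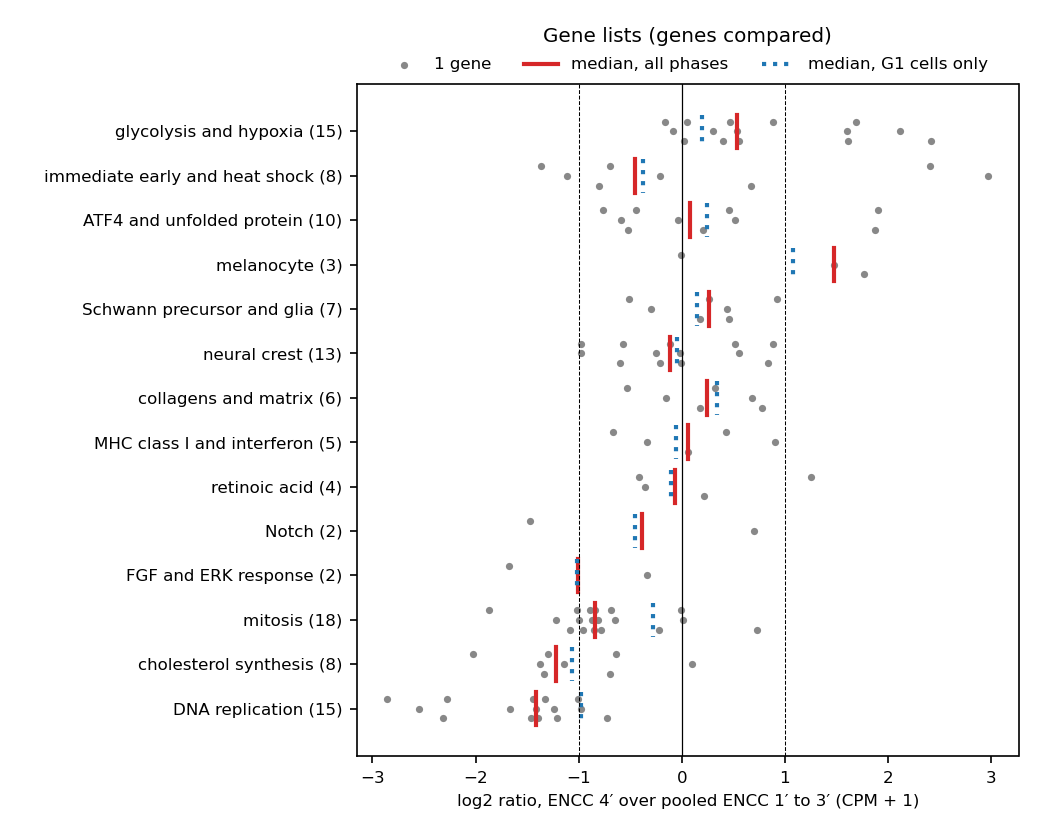
Log2 ratio of ENCC 4′ over the pooled ENCC 1′ to 3′ for the compared members of 14 lists (grey points, number in parentheses), with the list median over all cells (red) and over G1 cells (dotted blue), and dashed lines at 1 and -1. The median of DNA replication moves from -1.42 to -0.98 and that of mitosis from -0.84 to -0.28 in G1, and that of cholesterol synthesis from -1.22 to -1.06.

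Cholesterol synthesis genes were lower in ENCC 4′, also among G1 cells. Of 8 compared members, 5 had a log2 ratio under -1 and 0 were over 1, with a median of -1.22, or -1.06 among G1 cells. For comparison, 8.61% of all compared genes were under -1 over all phases. FDPS, IDI1, SQLE and HMGCS1, enzymes of the steps from acetyl units to squalene epoxide, had ratios between -1.37 and -1.14. FDPS was at 59.4 CPM (47.7 to 73.0) against 142, 168 and 143, and FDFT1, which makes squalene, at 77.2 CPM against 110, 135 and 132. SC5D was the exception, with 21.8 CPM against 18.5, 21.3 and 21.2.

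Stress genes were uneven. DDIT4, an inhibitor of mTORC1, was seen in all 138 ENCC 4′ cells at 1376 CPM (1318 to 1436), against 545, 240 and 380, and DDIT3, the factor CHOP, was at 53.4 CPM (42.4 to 66.4) against 19.3, 9.50 and 15.7. They were the 2 of 10 compared members of the ATF4 and unfolded protein list with a ratio over 1, as were 4% of all compared genes. None was under -1, and the median was 0.08. TRIB3 and ASNS, other targets of ATF4, did not share the direction. TRIB3 had 2 UMIs, or 1.32 CPM, against 18, 9.46 and 9.52, and ASNS, asparagine synthetase, was at 43.5 CPM against 108, 62.9 and 35.4. ATF4 itself was at 194 CPM against 167, 173 and 151.

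The heat shock members went the other way from JUN and FOS. In the immediate early and heat shock list, 2 of 8 compared members were over 1, those AP-1 genes, and 2 under -1, with a median of -0.45. Over all compared genes these shares were 4% and 8.61%. HSPA8, the constitutive HSP70, was at 150 CPM (131 to 171) against 261, 356 and 381, and HSPH1 at 13.2 CPM against 29.2, 43.7 and 24.2. HSP90AA1, the member with the most UMIs, was at 524 CPM against 790, 914 and 762. Of 7 compared p53 targets, GDF15 was over 1 and BAX, a pore protein of cell death, was under -1, at 43.5 CPM (33.7 to 55.4) against 97.8, 106 and 104. RPS27L had a ratio of -0.66. The list median was 0.34 over all phases but -0.14 among G1 cells. Its sum over all phases was lowest in ENCC 4′, at 454 CPM against 564, 532 and 630.

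Neural crest genes differed in both directions. Of 13 compared members, 0 passed 1 or -1 on the log2(CPM + 1) scale, and the median was -0.11. TFAP2A, an early crest factor, was at 21.1 CPM (14.4 to 29.8) against 41.8, 41.6 and 47.5, a CPM ratio of 0.496 to the pooled others, and TFAP2B at 101 CPM (85.6 to 118) against 151, 147 and 181. PAX3, a factor of premigratory crest and melanoblasts, was at 54.1 CPM (43.0 to 67.1) against 28.1, 28.1 and 33.0. NGFR, the low-affinity nerve growth factor receptor, was at 189 CPM (167 to 212) against 129, 94.3 and 84.4, and NR2F2 at 170 CPM against 128, 118 and 79.1. The list as a whole took 1038 CPM in ENCC 4′ and 1095, 1080 and 1035 in the others. Among G1 cells 2 members passed -1, SOX10 with -1.15 being one of them.

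Genes of the later crest fates gave a mixed profile. PHOX2A, a homeodomain factor of autonomic and enteric neuron precursors, had 29 UMIs in ENCC 4′, or 19.1 CPM (12.8 to 27.5), against 1.32, 0.34 and 1.22 CPM, a ratio of 23.5 (14.2 to 38.4) that fell under the level required for the comparison across genes. These UMIs lay in 26 of 138 cells, with at most 2 in a cell. At 3000 UMIs per cell, 5.07% of ENCC 4′ cells had one (2.06 to 10.2), against at most 0.55% in the other subclusters and 0 of 208 CP1 cells, which leaves room for 1.44%. It was 2 of 43 CP2 cells, or 4.65% (0.568 to 15.8), an interval that covers the share in ENCC 4′. The median CP1 cell had 11734.5 UMIs and the median CP2 cell 9256. EDNRB, the endothelin receptor of enteric and melanocyte precursors, was at 109 CPM (92.9 to 127) against 38, 46.1 and 102, so it lay within the counting error of ENCC 3′. It was the only one of 3 compared enteric progenitor genes over 1, with a list median of -0.30, and among G1 cells none of the 3 was. SOX11 and GFRA1 were lower, at -0.30 and -0.75. The list sum was nonetheless 315 CPM against 273, 298 and 311.

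Melanocyte genes were high in ENCC 4′ and also in ENCC 3′. MITF, the master factor of the lineage, was at 116 CPM (99.6 to 135) in ENCC 4′ against 45.2, 25.3 and 83.7, and DCT, a pigment enzyme, at 40.9 CPM (31.4 to 52.4) against 1.63, 5.74 and 52.1. These were the 2 of 3 compared members over 1, with a list median of 1.47. PMEL and MLANA, of the pigment granule, were far higher in ENCC 3′, at 551 and 96.8 CPM, than in ENCC 4′, at 146 and 19.8. TYR and TYRP1 had 0 UMIs. DCT was seen in 29 ENCC 4′ cells. Of these 29, 6 (20.7%) also held PHOX2A, close to the 18.8% of all 138 cells that did. MLANA was held by 8 of the 29 (27.6%), against 10.1% of all 138.

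Of the Schwann precursor and glial list, 0 of 7 compared members passed 1 or -1, with a median of 0.26. S100B, a glial calcium-binding protein, was at 121 CPM, against 95.3, 172 and 359. The sympathoadrenal list summed to 6 UMIs, with 0 members compared.

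In the FGF and ERK list, whose ligand FGF2 was in the medium, members differed in both directions. DUSP6, a phosphatase induced by ERK, was at 9.23 CPM (5.05 to 15.5) against 34.9, 32.5 and 21.4, a log2 ratio of -1.67, and was 1 of 2 compared members of the FGF and ERK list. The other was FGFR1, at -0.34, and the median was -1.01. Below the level for comparison, ETV5 had 3 UMIs, or 1.98 CPM, against 14.3, 19.8 and 11.8, and ETV4 had 0 against 4.11, 4.43 and 1.22 CPM. SPRY1, a feedback inhibitor, did not follow, with 10.6 CPM (6.03 to 17.1) against 2.53, 0.82 and 1.22. The list sum was 62.7 CPM (50.7 to 76.6) against 137, 138 and 102, and 50.5 against 112 in the pooled others among G1 cells.

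Other signalling lists showed single members rather than whole pathways. In the Notch list HES1, a target, was at 261 CPM (235 to 288) against 157, 148 and 204, and HES6, an antagonist of HES1, at 23.1 CPM (16.1 to 32.1) against 51.6, 74.7 and 69.8. They were the only 2 compared members, with HES6 under -1 and a median of -0.38. In the retinoic acid list, CRABP1, a cytoplasmic carrier, was over 1, at 40.9 CPM (31.4 to 52.4) against 20.4, 14.5 and 14.3. CRABP2, the member with the most UMIs, was at 0.22, and the median of 4 compared members was -0.07. Among G1 cells no member of the list passed 1. The 2 compared BMP response genes, ID3 and ID4, had ratios of -0.87 and -0.72 and a median of -0.79. None of 11 WNT response genes was compared, and AXIN2, a feedback inhibitor, was at 19.8 CPM (13.4 to 28.3) against 8.69, 9.99 and 7.69.

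In several other lists no member passed the threshold. None of the compared members passed 1 or -1 among 6 collagen and matrix genes (median 0.25), 6 genes of the epithelial-mesenchymal transition (-0.24), 2 mural and smooth muscle genes (0.24), 5 of MHC class I and interferon (0.06), 2 of neuronal commitment (-0.43) and 1 of the receptor tyrosine kinases (ERBB3, -0.57). SPARC, a matrix glycoprotein, was at 167 CPM (147 to 189) against 93.9, 94.9 and 155. Vimentin (VIM) was at 1832 CPM against 1726, 1080 and 2215, a log2 ratio of 0.31 that was -0.085 among G1 cells and -0.13 among cells with fewer than 2200 genes. Of 3 compared pluripotency genes, L1TD1 was under -1, at 11.2 CPM against 28.6, 39.4 and 24.0, LIN28A was at 230 CPM against 188, 155 and 127, and the median was -0.96. In the lists of Notch, epithelial-mesenchymal transition and pluripotency the sum did not share the negative sign of the median, with 344, 2255 and 277 CPM in ENCC 4′ against 306 to 342, 1563 to 2764 and 240 to 277 in the others. The placode list had 1 compared member, SST, at -0.23.

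Ribosomal and mitochondrial transcripts differed in opposite directions. Of 81 compared ribosomal protein genes, 66 were highest in ENCC 4′, but their median ratio was only 0.10 and 0 passed 1. Their sum was 473198 CPM against 445391, 441823 and 447298. Of the 13 genes encoded in mitochondria, 11 were lowest in ENCC 4′ and 3 were under -1, with a median of -0.70. They summed to 19551 CPM against 26975, 28623 and 27439. Among G1 cells the difference was smaller, with 19488 against 24357 CPM in the pooled others.

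The leading genes of ENCC 4′ stood below their level in ENCC 4′ in each of the 4 numbered subclusters at day 10, which the authors clustered separately. BHLHE40 stood between 0.12 and 0.72 CPM there, HES7 between 0 and 0.89 and RRAGD between 1.34 and 2.59. The highest were SLC2A3, between 9.97 and 17.4 CPM, and CLK1, between 11.6 and 13.8, where the pooled ENCC 1′ to 3′ of day 15 had 11.6. ENCC 4 of day 10 was the highest of its 4 subclusters for 7 of the 15 genes and the lowest for 4, often on a few UMIs (1 for BHLHE40 and 2 for GDF15), and ENCC 1, 2 and 3 were highest for 2, 3 and 3. Some day 10 levels were higher in other classes, such as 77.7 CPM of ADM and 48.9 of EGLN3 in NEP and 416 of SLC2A3 in non-neural ectoderm (NNE). DDIT4 was already abundant in the day 10 subclusters, at 529 to 704 CPM, and SOX10 was at 104 to 128 CPM. Day and library cannot be told apart in these values.

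**Figure D5:**
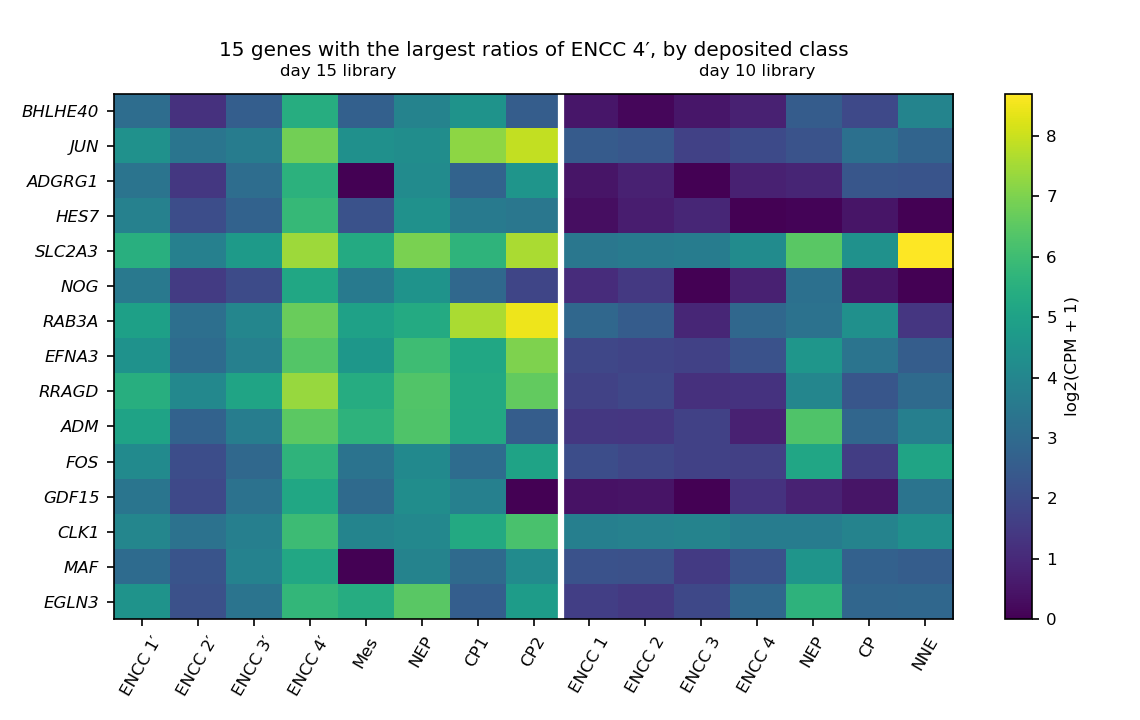
Log2(CPM + 1) of the 15 genes with the largest ratios of ENCC 4′ in the deposited classes of the day 15 library (left of the white line) and the day 10 library (right). The ENCC 4′ column is brighter than the other day 15 ENCC columns in every row, which the choice of genes fixed. The day 10 ENCC columns are dark, for example at most 0.72 CPM for BHLHE40.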

How the data were processed

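Single-cell libraries of a day 10 and a day 15 culture were prepared with the 10x Genomics 3′ chemistry from cells dissociated with accutase, although the labels call them nuclear libraries. The authors deposited a table of raw UMI counts per gene and cell for each library, with a table of each cell's annotation. According to the methods, reads were pseudoaligned with kallisto and counted with bustools, while the submitters' processing notes name Cell Ranger, Seurat 4.0.4 and GRCh38. The mitochondrial and ribosomal percent values per cell were deposited by the authors, as was a fraction relating detected genes to UMIs, which was not used here. At day 15 the authors kept cells above 1500 genes that also passed upper limits on genes, UMIs and mitochondrial share. They clustered the ENCCs on variable genes after regressing out depth, mitochondrial and ribosomal share and cell cycle scores. Imputed values were not used here.

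Counts were summed over the cells of each deposited class in Python 3.11.15 (numpy 2.4.6, pandas 2.3.3, scipy 1.17.1) and divided by the class total. The day 15 library held 84976253 UMIs and the day 10 library 70488169. Genes with a mean of at least 20 CPM between ENCC 4′ and the pooled ENCC 1′ to 3′ were compared by log2 of (CPM + 1), and a log2 ratio past 1 or -1 was counted. Since every stage had 1 library and the clusters were drawn from these same genes, no test was made and no p-value given. Intervals are exact at 95% (Poisson, Clopper-Pearson or conditional binomial), and the limit for a count of 0 is 3 UMIs. For shares of cells with a UMI, each cell was thinned to 3000 UMIs, which left out no cell. The step that sums and compares counts was tested on simulated data.

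The text names the 15 genes with the largest and the 15 with the smallest ratios among those beyond all 3 other subclusters, leaving out ribosomal and mitochondrial genes, then members of 33 gene lists past 1 or -1 or with the most UMIs, and PDGFRA, PDGFRB, BNC2, ETV1, SOX10 and FOXD3. Some genes that fall under these rules are not reported here, although they stay in the counts. Other list members named were picked for their role after their values were seen. The subcluster and the lists were chosen with earlier results of these data known. Alternatives were other minimum levels, a pseudocount of 5, scaling by edgeR 4.0.16 (TMM) and DESeq2 1.42.0 size factors in R 4.3.3, equal weights of the 3 other subclusters, means of CPM per cell, G1 cells only, and leaving out the 10% of cells with the most UMIs. Cells with fewer than 2200 genes were added after seeing the data. Promoters were taken from a RefSeq table of 27305 genes on GRCh38.p14, matched by symbol.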

Additional observations from a re-analysis of the deposited data

Results flagged for a closer look

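The authors removed 35 day 15 cells with at most 1500 detected genes, which no comparison above uses. Together they held 246236 UMIs, so that 3 UMIs were worth 12.2 CPM. Of the 15 genes with the largest ratios in ENCC 4′, 9 stood above that limit in these cells. BHLHE40 was at 16.2 CPM, JUN at 24.4, SLC2A3 at 40.6, RAB3A at 20.3 and EFNA3 at 28.4. RRAGD was at 60.9 CPM, ADM at 36.6, CLK1 at 20.3 and EGLN3 at 20.3.

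Of the same 15 genes, 14 were above the level of the pooled ENCC 1′ to 3′ in the removed cells, 3 with an exact Poisson interval wholly above it, and 13 had an interval wholly below the level of ENCC 4′. All 15 genes with the smallest ratios in ENCC 4′ were below the pooled others in the removed cells. The removed cells held 14 SOX10 UMIs, or 56.9 CPM, and 1 FOXD3 UMI, or 4.06 CPM, which is under that limit. By rank correlation they were nearest to ENCC 1′ (Spearman's rho 0.841) and ENCC 3′ (0.839), then to ENCC 4′ (0.832) and ENCC 2′ (0.801). They carry no deposited subtype and are 35 cells of 1 library, and the levels cover counting error only.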

How the results depend on the processing

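No paired analysis was possible because each stage had 1 library. The count of genes past 1 and -1 was 158 and 340 as reported. It was 234 and 637 with a minimum of 10 CPM, 75 and 127 with 50 CPM, 521 and 2033 with no minimum, 232 and 197 with TMM, 236 and 187 with DESeq2 size factors and 106 and 177 among G1 cells, of which 99 and 155 were shared with the reported genes. With a pseudocount of 5 CPM the log2 ratio of PDGFRB was 1.14 against 2.16. The median of the glycolysis and hypoxia list was 0.73 with TMM, 0.74 with DESeq2, 0.20 among G1 cells and 0.18 among cells with fewer than 2200 genes. That of DNA replication was -0.98 among G1 cells and -2.22 among cells with few genes, and that of mitosis -0.28 and -1.52. The share of ENCC 4′ cells with a SOX10 UMI was 9.42% at 3000 UMIs per cell, 21.0% at 5000 and 37.7% without thinning.

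A sign change was counted only where the counting interval of the reported value excluded 0. By this rule the sign changed for VIM, from 0.31 to -0.085 among G1 cells and -0.13 among cells with few genes, for PLK1, from -1.02 to 0.66 among G1 cells, and for GAPDH, from 0.30 to -0.12 among cells with few genes. Some list medians outside this rule also changed sign among G1 cells. Those of the p53, mesenchymal and MHC class I lists went from 0.34, 0.05 and 0.06 to -0.14, -0.08 and -0.06. The cause was not tested. Of 1136 other values, for 142 genes and lists under 8 alternatives, 977 stayed within the counting interval of the reported value, 155 moved past it, and 4 were the sign changes of VIM, PLK1 and GAPDH. Sign changes outside the rule are among the 977 or the 155. Most moves came from 2 alternatives. With G1 cells only, 49 of the 142 values moved and 2 changed sign. Among cells with fewer than 2200 genes, 55 moved and 2 changed sign. Each other alternative moved between 1 and 21. With 1516022 UMIs in ENCC 4′, levels near 1.98 CPM could not be resolved.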

Other observations

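Some abundant genes outside the lists also differed, named here after their values were seen. TUBA1B, an alpha tubulin, was at 952 CPM in ENCC 4′ against 2997 in the pooled ENCC 1′ to 3′, a log2 ratio of -1.65, and TUBB, a beta tubulin, had a ratio of -1.12. HMGB1, a chromatin protein, was at 546 CPM against 1314, the opposite direction from HMGB2. H3F3B, a replication-independent histone gene, was at 2879 CPM against 1248, a log2 ratio of 1.20, and WSB1 was at 946 against 420.

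Subunits of the vacuolar proton pump, which acidifies lysosomes, were examined as a family after ATP6V1A had been seen among the higher genes. Of 12 compared members, 3 had a log2 ratio over 1 and 0 were under -1, with a median of 0.29 and a range from -0.58 to 2.01. The shares over all compared genes were 4% over 1 and 8.61% under -1. ATP6V1A was at 73.2 CPM in ENCC 4′ against 17.4 in the pooled others, ATP6V1H at 108 against 31.2 and ATP6V0A1 at 38.3 against 12.4. Both compared CLK kinases of splicing factors were over 1, CLK1 at 2.33 and CLK3 at 1.55.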
